A study of Rattus norvegicus with 18 samples.

Results

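Germ cells that had attached to laminin were compared with germ cells that had not, across every gene on the arrays. Laminin-binding and laminin non-binding cells were each read on 2 types of 1-colour oligonucleotide array, called type A and type B here, so that the comparison rests on 4 of the 18 arrays in the study. The arrays were chosen by their titles alone. Both populations were germ cells from the testes of 22-day-old rats, and both are marked as cultured, with no culture day or strain given. From each population 50 ng of total RNA had gone through 2 rounds of amplification. The other 14 arrays hold germ cells kept on the feeder lines STO (mouse embryonic fibroblasts) for 1, 5, 10 or 20 days or MSC1 (mouse Sertoli-type cells) for 20 days, and the interstitial and tubular somatic cells of the testis. There was 1 library per population and array type, so no fold below has a replicate check or a p-value, and each describes these libraries only. The labels do not say how many animals were pooled.

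Laminin is a protein of the basement membrane that surrounds each seminiferous tubule. Spermatogonia, the mitotic germ cells that include the stem cells, sit on that membrane and hold it through integrins, so that attachment to laminin is a common way to enrich them. Spermatocytes, which undergo meiosis, and spermatids, which build the sperm tail and the acrosome, lie further inside the tubule. During the pachytene stage of meiosis the X chromosome of male germ cells is transcriptionally silenced, and several autosomal, germ-line copies of widely used genes are switched on.

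A set of lower genes is shown by sequence because the largest group of them encodes the axoneme, the microtubule core of the sperm tail. The motif CAGTTG, which MYB-family factors bind and which was searched on both strands, occurred in the promoters (250 bases before to 50 after the start of the gene) of 8 of 38 axoneme and cilium genes that were lower in binding cells, or 21.1%. Among all 9129 measured genes with a RefSeq promoter it occurred in 10.7%, among the 603 lower genes in 13.9% and among the 527 higher genes in 8.54%. These shares describe letters in a window, and no factor binding was measured. Motifs of other factors were counted in the same promoters, with shares given below, and no test set this motif apart from them. The windows below are 90 bases from the upstream part, from RefSeq on the GRCr8 assembly, written 5′ to 3′ along the strand of the gene, with the motif or its complement CAACTG in capitals. They come from Drc3, of the complex that regulates dynein (chr10:45658645-45658734, plus strand), Rsph10b, of the radial spokes (chr12:15788828-15788917, minus strand), Cfap161, a cilium- and flagellum-associated protein gene (chr1:147177856-147177945, minus strand), and Tekt4, a tektin of the microtubule doublets (chr10:14992194-14992283, plus strand).
Drc3: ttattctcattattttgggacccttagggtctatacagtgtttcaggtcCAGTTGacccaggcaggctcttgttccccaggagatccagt
Rsph10b: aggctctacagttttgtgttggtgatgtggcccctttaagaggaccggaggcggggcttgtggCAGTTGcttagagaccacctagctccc
Cfap161: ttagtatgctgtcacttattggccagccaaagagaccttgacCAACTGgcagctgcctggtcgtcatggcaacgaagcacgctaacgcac
Tekt4: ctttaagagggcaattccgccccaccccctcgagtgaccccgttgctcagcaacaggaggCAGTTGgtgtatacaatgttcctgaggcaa

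The signals of these 4 genes were 132 in binding and 2331 in non-binding cells for Drc3, 21.4 and 661 for Rsph10b, 11.4 and 406 for Cfap161, and 78 and 416 for Tekt4. All 4 were therefore dim in binding cells and bright in non-binding cells. Motifs of other factors, also searched on both strands, are given for all, higher and lower genes. The ETS motif CCGGAAG was in 17.8% of all promoters, 13.9% of those of higher genes and 21.6% of those of lower genes. The E2F motif GCGGGAAA was in 2.11%, 1.71% and 4.31%. The EGR motif GCGNGGGCG was in 10.1%, 13.7% and 11.3%, and the SP/KLF motif CCGCCC, which can overlap it, in 62.1%, 68.3% and 63.2%. The cAMP response element TGACGTCA was in 3.21%, 3.98% and 2.32%, its variants TGACGTGA or TGACGCAA in 1.37%, 0.95% and 1.82%, the E-box CACGTG in 9.85%, 12.1% and 10.9%, and the AP-1 motif TGANTCA in 4.94%, 3.98% and 3.15%. The X-box of RFX factors was searched only as long, nearly fixed strings, so sites that depart from them were not counted. These strings were in 17 of the 9129 promoters and in 2 of those of lower genes. Of the 38 promoters of lower axoneme and cilium genes, 1 held such a string. In those 38 promoters ETS, EGR and E-box motifs were in 15.8%, 15.8% and 10.5%, and SP/KLF in 60.5%. The E2F motif and the variants of the cAMP response element were each in 2.63%. The cAMP response element and the AP-1 motif were in none.

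Signals are intensities scaled by the authors to an average of 250 per array. Values under 50 were raised to that floor, and a gene or probe set was called where its brighter side reached 250 and the fold was at least 3. Of 31042 probe sets 1132 were called higher in binding cells (3.65%) and 1186 lower (3.82%). Each gene was read from 1 probe set, which gave 10977 measured genes, of which 625 were higher (5.69%) and 713 lower (6.5%). Of 10378 probe sets with no gene in the annotation 333 were higher (3.21%) and 250 lower (2.41%). The folds were larger on the lower side. A fold of at least 10 was reached by 27 higher and 86 lower genes, and a fold of at least 20 by 2 and 30. The median log2 fold over all measured genes was 0.21, so the medians of gene groups below are set beside that value. The shares of calls in gene groups are to be read beside 5.69% higher and 6.5% lower of all measured genes, and several lie near them.

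**Figure D1:**
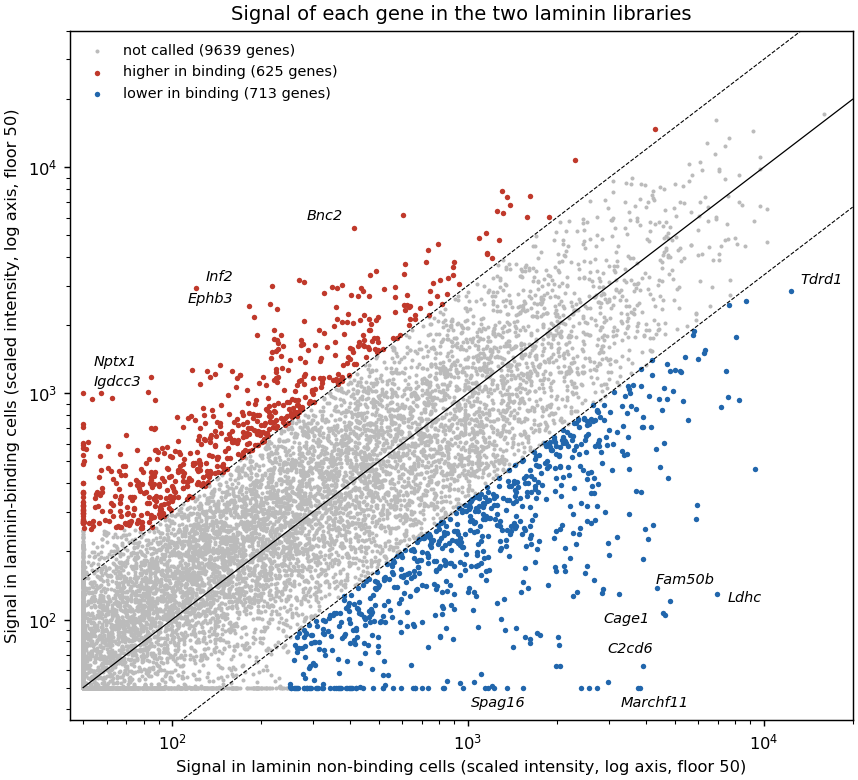
Scaled signal of each of 10977 measured genes in non-binding cells (x axis) and binding cells (y axis), both on log axes with a floor of 50; the solid line marks equal signals and the dashed lines a 3-fold difference. The 625 higher genes (red) reach 24.2-fold at Inf2, and the 713 lower genes (blue) reach further from the line, with Marchf11 at the floor in binding cells against 3771.

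The scale factors of the arrays differed. They were 1.03 on type A and 4.01 on type B for binding cells and 0.58 and 2.12 for non-binding cells, so the floor of 50 stood for unscaled signals of 48.6 and 12.5 in binding and 85.9 and 23.6 in non-binding cells. The 3′ probe set of Gapdh was 7.07 and 8.83 times as bright as its 5′ probe set in binding cells and 5.63 and 5.33 times in non-binding cells, and for actin these ratios were 21.6 and 13.1 against 8.91 and 11.6. The part of this difference in the folds below was not tested. The only repeated reading is that of 100 probe sets present on both array types. Over the 99 of them that were measured on both, the log2 folds differed with a standard deviation of 0.21 per array type, so that 2 standard deviations came to 1.34-fold. That spread leaves out a shift between the types, as the log2 fold was higher on type A than on type B by a median of 0.19. None was called in opposite directions, 2 were higher and 5 lower on both types, 6 were called on 1 type only, and 89 of 99 had the same sign. This error covers the arrays and not the animals, the sort or the amplification. Nearly all of the shared probe sets reached the floor, against 23273 of all 31042 probe sets, so the error at dim signals was not gauged.

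**Figure D2:**
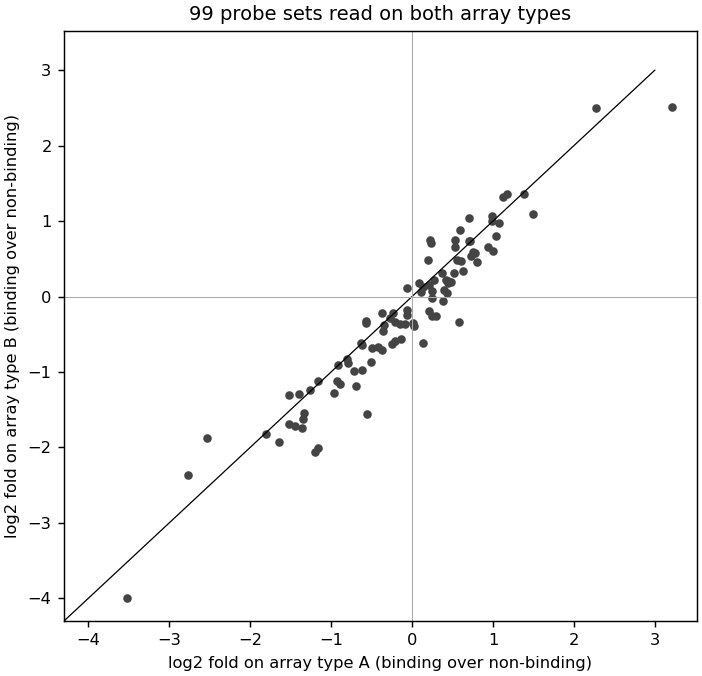
Log2 fold (binding over non-binding) of 99 probe sets on array type A (x axis) and type B (y axis), with the line of equal folds. The points lie along the line but are shifted toward type A by a median of 0.19, with a largest difference between the types of 1.00 on the log2 scale.

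The labels were checked against marker genes of each cell type, as sums of signals over the markers on the arrays. Spermatocyte markers summed to 2545 in binding and 23177 in non-binding cells, with 6 of 8 measured markers lower in binding cells. Markers of undifferentiated spermatogonia summed to 5538 and 3498, with 3 of 8 measured markers higher, although Epcam was 2153 and 2617 and Etv5 199 and 237. Gfra1, the GDNF-binding receptor subunit of stem cells, was 186 in binding and 92 in non-binding cells. Markers of differentiating spermatogonia summed to 3388 and 2029, with Dnmt3a and Ccnd2 higher and Dmrtb1 lower of 5 measured. The list for germ cells of all stages summed to 5279 in binding and 18206 in non-binding cells. Its 3 genes were all dimmer in binding cells, with Tdrd1 at 2837 and 12405 (called lower), Tex14 at 1756 and 4114 and Mov10l1 at 687 and 1686. Spermatid markers were under the floor, in 6 of 7 genes in binding cells and 7 of 7 in non-binding cells. The protamine genes Prm1 and Prm2, which define late spermatids, read 5.2 and 5 in binding and 11.5 and 3.5 in non-binding cells.

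Somatic markers were low in both libraries but not equal. Sertoli markers summed to 1587 in binding and 723 in non-binding cells, beside 9064 for tubular somatic cells. Of the 6 measured Sertoli markers 1 was called, Cldn11, the tight junction claudin of Sertoli cells, higher at 637 against 157. Wt1 (155 and 67.8), Dhh (466 and 189), Inha (157.5 and 57.7) and Gata1 (59 and 53) were brighter in binding cells but not called. Clu was dimmer there (74.3 and 179). Sox9, a defining Sertoli gene, read 5.5 and 4, but only 8.1 in tubular somatic cells, so its low signals say little. Leydig markers summed to 241 and 285, peritubular myoid markers to 170.3 and 134.0, fibroblast markers to 510 and 349.7, macrophage markers to 497 and 525, and endothelial markers to 428 and 271. Both red blood cell markers were under the floor in binding cells, and they summed to 21.3 and 279.8. Of the 625 higher genes 265 read at least 3 times their non-binding signal in a somatic fraction. Such genes are called somatic-bright below. This count is set against the side that a higher call makes dim, so the corresponding count of lower genes, 11, is not comparable with it. Set against the brighter of both germ cell libraries, a somatic fraction was at least as bright for 193 higher genes (30.9%) and 107 lower genes (15%), beside 31.3% of the 6048 measured genes that reached 250 in either library. The part of somatic RNA in the higher genes was not tested. In such bulk samples fewer cells of a type and less RNA per cell cannot be told apart.

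Genes of the cilium and axoneme were often lower in binding cells. Of 109 measured genes 43 were called lower (39.4%, against 6.5% of all genes) and 2 higher, with a median log2 fold of -0.93. On type A alone that median lay -0.67 from the median of all genes, in place of -1.14. Bbs1, a subunit of the BBSome that carries cargo in cilia, read 20.2 in binding and 2732 in non-binding cells, at least 54.6-fold lower, while its other probe set was dim, at 102.3 and 10.8, and was not called. Spag16, of the central pair of the axoneme, read 11 and 1354, at least 27.1-fold lower. Its signal was also under the floor in both somatic fractions. Dnali1, a light chain of inner dynein arms, was 23.7-fold lower (50.8 and 1206), and Dnaaf1, which helps assemble dynein arms in the cytoplasm, was 19.6-fold lower (87 and 1708).

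The lower genes came from several parts of the tail. Dynein heavy chains were represented by Dnah12 (18.9-fold lower) and Dnah1 (3.41-fold lower), and the nexin-dynein complex by Drc1 and Drc3 at 17.9-fold and 17.6-fold lower. Tektins, which line the microtubule doublets, were lower for Tekt1 (82.3 and 893), Tekt2 (7 and 833), Tekt3 (12.4 and 735) and Tekt4. Odf2, of the outer dense fibres, read 263 and 4231, 16.1-fold lower by the probe set used, while another probe set read 147 and 425 and a further one was under the floor. Ropn1l, a protein of the radial spokes and fibrous sheath, read 251 and 3973.

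Genes of the transport system that builds the tail were among the lower ones. Ift57, of the intraflagellar transport complex, read 937 and 8284, 8.84-fold lower. Ift74 read 948 and 4444, Ift81 1077 and 3850 (3.58-fold lower) and Ift88 719 and 3350 (4.66-fold lower). Ift46 read 103.1 and 462, Ift172 198 and 699.5 and Ift20 288 and 1155. The signals of these 7 genes in binding cells thus ran from 103.1 to 1077. The retrograde motor of the same system had 3 lower genes in the motor group, with Dync2h1 at 4.31-fold, Dync2li1 at 4.92-fold and Dync2i2 at 3.69-fold. That motor and tubulin group had 6 lower (7.89%) and 4 higher (5.26%) genes of 76, near the shares of all genes (median 0.16). The cilium and axoneme group was set by gene symbol, and not every member acts in cilia. Both higher members, Ttc7b and Ttc4, are named for a protein repeat and are not axoneme genes, and Spag9, 5.08-fold lower, encodes a kinase scaffold.

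**Figure D3:**
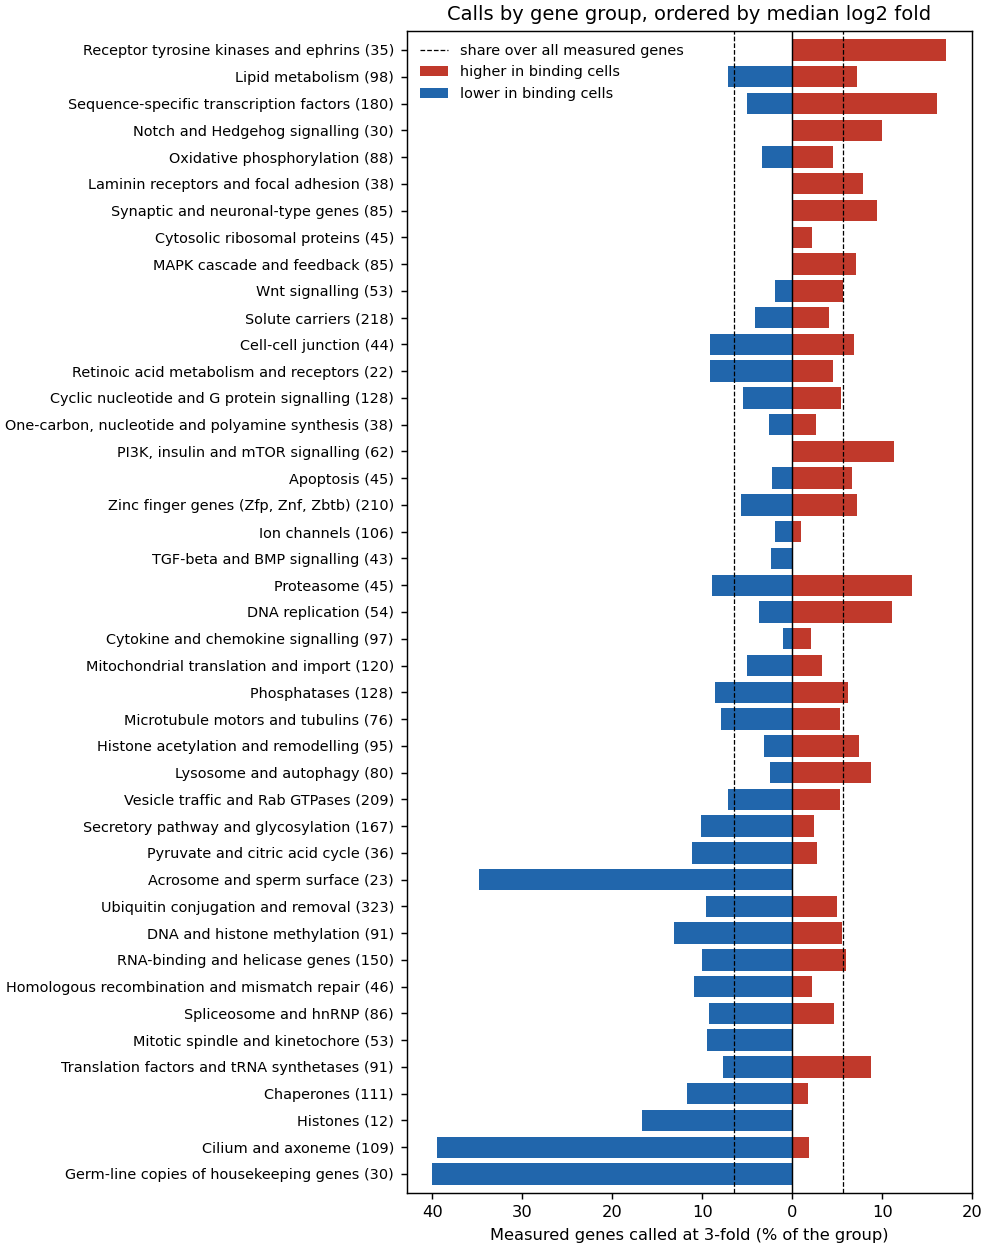
Share of measured genes called higher (red, to the right) and lower (blue, to the left) in binding cells for 43 gene groups, with the number of measured genes in parentheses and the groups ordered by median log2 fold; dashed lines give the shares over all genes, 5.69% and 6.5%. The group of germ-line copies (40% lower), the cilium and axoneme (39.4% lower) and the acrosome group (34.8% lower) extend furthest to the left, and receptor tyrosine kinases (17.1% higher) and transcription factors (16.1% higher) furthest to the right.

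Genes of the acrosome and the sperm surface were lower for 8 of 23 measured genes (34.8%) and higher for none. The median of the group was 0.08, as the other 15 were not called. It lay -0.12 from the median of all genes, and -1.31 from it with a floor of 100. Adam3a and Adam32, membrane proteins of the sperm surface, were both 20.6-fold lower (85 and 1752, 78.7 and 1620). Zpbp, an acrosomal protein that binds the egg coat, read 273 and 2526. Izumo4, of the family of the sperm-egg fusion protein, read 170 and 1969, and all 3 of its probe sets were lower. Catsperz, an auxiliary subunit of the calcium channel of the sperm tail, read 16.7 and 651, at least 13-fold lower, whereas 103 of 106 measured ion channel genes were not called.

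Among further genes with large folds, Cmtm2a and Crisp2 are 2 of the 8 lower genes of the acrosome group. The others lie outside these groups or belong to meiosis. C2cd6, a sperm flagellum gene, was 62.9-fold lower (62.3 and 3919), Cmtm2a 56.3-fold (53 and 2982), Cage1 44.5-fold (104.2 and 4641), Plaat5 32.9-fold (62.5 and 2056) and C8h3orf62 31.7-fold (137 and 4354). With the binding side under the floor, Crisp2, a secretory protein of testis and sperm, read 20.3 and 3811, at least 76.2-fold lower. Spo11, the enzyme that cuts DNA to start recombination in meiosis, read 14.5 and 2417, at least 48.3-fold lower. C8h11orf97 read 15.1 and 2569 and Afg1l 29.8 and 1223. All of these were dim in binding cells and bright in non-binding cells. Marchf11, a membrane-bound ubiquitin ligase, read 41.5 and 3771, at least 75.4-fold lower, and was under the floor on every feeder culture. Slc13a5, a citrate carrier (chr10:57364806-57389500), read 107 and 4562, 42.5-fold lower. Fam50b (chr17:30379796-30399399) read 121 and 4835, 39.9-fold lower, and it was under the floor in all 7 other populations. Morn5, Tmbim7 and Ppp1r42 were 24.1-fold, 25.1-fold and 32.0-fold lower. Of the 713 lower genes 453 were brightest in non-binding cells among all 9 populations, and 8 were under the floor in all 8 others. A lower call itself needs a bright non-binding side, so both counts follow in part from the call. The same counts over all measured genes were not made.

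Germ-line copies of widely used genes were lower in binding cells, while their partners mostly were not. Of 30 measured genes in the group of copies 12 were lower (40%) and none higher, with a median log2 fold of -1.35. The group also holds germ cell genes that are not copies, such as Tcp11 and Dmrtb1. In a list of 30 pairs of a somatic gene and its germ-line copy, both members were measured in 15, and the copy lay below the partner in log2 fold in 12. Over the measured copies the median was -1.46 (19 genes, 8 lower and 0 higher), and over the partners it was 0.36 (21 genes, 4 lower and 3 higher).

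Several pairs act in energy metabolism. Pdha2, the testis form of the pyruvate dehydrogenase alpha subunit, read 97.9 in binding and 698 in non-binding cells (log2 fold -2.83), and its X-linked partner Pdha1 285 and 145 (0.97). Slc25a31, the germ-line ADP/ATP carrier, read 65.1 and 194 (-1.57), and Slc25a5, on the X chromosome, 626 and 311 (1.01). Cox6b2, a testis form of a cytochrome c oxidase subunit, read 105 and 254 (-1.27), and Cox6b1 1457 and 233 (2.64). In each of these pairs the copy was dimmer and the partner brighter in binding cells, although only Pdha2 and Cox6b1 passed 3-fold. Ldhc went with its partner instead, as Ldha was itself 3.41-fold lower (561 and 1913).

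Of the 6 X-linked partners in pairs with both members measured 3 had a log2 fold above 0, and the copy lay below its partner in 4 of these pairs. Smc1b, a meiotic cohesin subunit, read 388 and 2630.0 (log2 fold -2.76), and X-linked Smc1a 44 and 74.3 (-0.57). Stag3, the meiotic cohesin subunit, was 3.10-fold lower, and its X-linked partner Stag2 was lower too, at 5.96-fold by the probe set used, while another probe set read 426.5 and 805.5. Rad21, the mitotic cohesin kleisin, was 4.07-fold higher (3623 and 889). The poly(A) polymerase gene Papola and its copy Papolb were both lower, at 4.03-fold and at least 7.76-fold. Stag3, Calr3 and Cstf2t were the copies that lay above their partner. Cstf2t, a retrogene copy of a polyadenylation factor, read 2780.1 and 2133 (0.38) against 1070 and 1382 (-0.37) for Cstf2, which is X-linked.

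The X chromosome was shifted toward binding cells. Of 322 measured X-linked genes 29 were higher (9.01%) and 13 lower (4.04%), against 594 (5.6%) and 697 (6.57%) of 10614 genes on the 20 autosomes. The median log2 fold was 0.49 on the X and 0.20 on the autosomes, whose own medians ran from 0.06 to 0.36. The X thus lay above every autosome in its median, in the share of higher genes (3.70% to 7.64% on autosomes) and below every autosome in the share of lower genes (4.63% to 8.61%). The middle 50% of X-linked genes ran from -0.12 to 1.05. The binding side was the brighter for 71.4% of X-linked and 58.3% of autosomal genes.

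**Figure D4:**
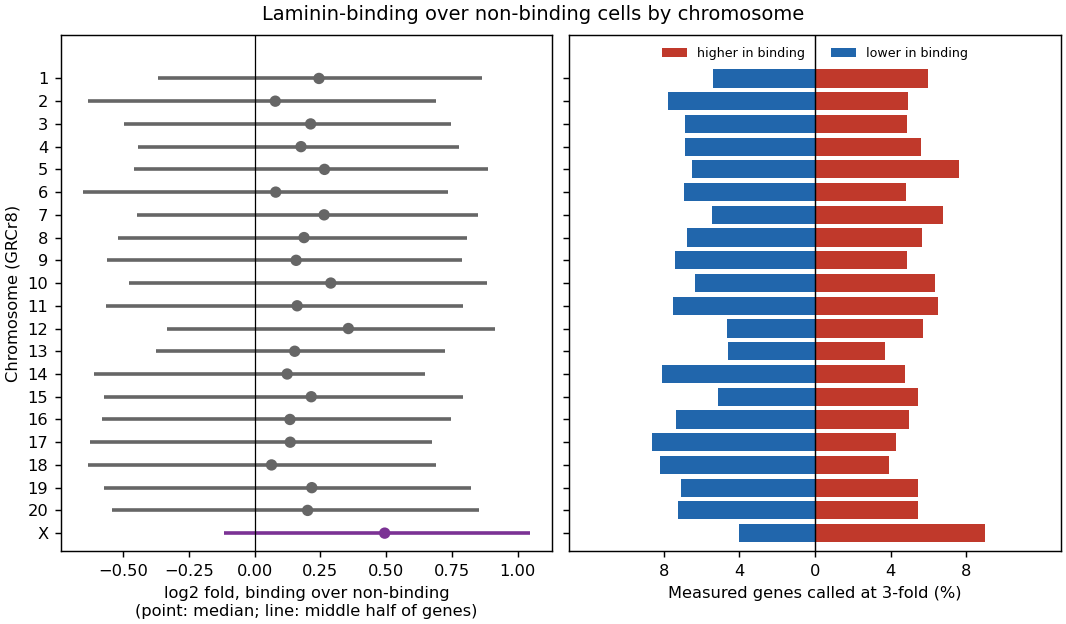
Left, median log2 fold of measured genes on each rat chromosome (point) with the middle 50% of genes (line), in log2 units. Right, percent of measured genes called higher (red) and lower (blue) in binding cells; the X has a median of 0.49 against 0.06 to 0.36 for the 20 autosomes, and the interquartile ranges overlap.

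X-linked genes went in both directions. Tbl1x, a subunit of a corepressor complex, was 10.7-fold higher (940 and 87.6), and Phka1, of phosphorylase kinase, 8.63-fold (1907 and 221). Dusp9, a phosphatase of MAP kinases, read 1527 and 217, and it was under the floor in both somatic fractions. On the lower side Las1l, which acts in ribosome maturation, read 46 and 400.1, at least 8.002-fold lower. Txlng was 7.58-fold lower (133 and 1005), Wdr44 7.38-fold lower (327 and 2418) and Fmr1, an RNA-binding regulator of translation, 5.60-fold lower (141 and 789). Taf7l, a germ cell subunit of the transcription factor TFIID that is itself X-linked, was lower at 1447 and 5422.

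Genes of sequence-specific transcription factors were more often higher than lower. Of 180 measured genes 29 were higher (16.1%) and 9 lower (5%), with a median log2 fold of 0.56. Hoxb4, a homeobox gene, read 603 and 19, at least 12.1-fold higher. Foxr1, a forkhead gene, read 589.9 and 31.8, at least 11.8-fold higher, and it was under the floor in both somatic fractions. Foxp1 was 8.86-fold higher (1186 and 133.9), Pbx2, a cofactor of homeobox proteins, 6.17-fold (842 and 136) and Nfix 6.48-fold (358 and 55.2). Of the 29 higher genes 7 were somatic-bright.

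Some of these factors are known from spermatogonia. Foxo1, a regulator of the spermatogonial stem cell pool, read 344 and 87 (3.95-fold higher). Bcl6b, a target of GDNF signalling, read 565 and 176 (3.21-fold). Pou2f2, a POU-domain gene, read 541 and 106, and both of its probe sets were higher. Foxm1 was 4.69-fold higher (514 and 109.6) and E2f8 read 353 and 88.3. Mybl2 was 4.14-fold higher by the probe set used (628 and 152), while its other probe set read 922 and 769 and was not called. Stat2, of interferon signalling, was 11.1-fold higher (3102 and 278), and its signal in the tubular somatic fraction was as high, at 3133. Tead1, the partner of YAP in Hippo signalling, read 1909 and 465, with 2006 in the tubular fraction.

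The 9 lower factors included genes of meiotic cells. Tcfl5, a basic helix-loop-helix factor of spermatocytes, was bright in both libraries at 2456 and 7645. Pbx4, a testis-rich PBX gene, read 35.2 and 370.1, at least 7.40-fold lower, and Pbx3 598 and 3090.1, 5.17-fold lower, whereas Pbx2 was higher. The PBX genes thus did not move together. Dmrtb1, which controls the switch from mitosis to meiosis, read 211 and 1346, and Foxk2 37.3 and 515. The group was set by symbol and counts Nanos3, which binds RNA, among the higher genes and Taf7l, a TFIID subunit, among the lower ones. In the separate group of 210 zinc finger genes 15 were higher (7.14%) and 12 lower (5.71%). Zfp219 was 10.3-fold higher (6178 and 601) and Zfp367 15.9-fold lower (91.5 and 1456).

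Chromatin regulators went in both directions. Among 95 measured genes of histone acetylation and remodelling 7 were higher (7.37%) and 3 lower (3.16%, median 0.16). Satb1, a chromatin organiser, was 8.11-fold higher (2926 and 361), Arid3a 9.61-fold (1263 and 132), Chd8 5.00-fold (2042 and 409) and Chd7 4.73-fold (268 and 56.6). Somatic-bright were 2 of the 7 higher genes, among them Chd7, at 423 in the tubular fraction. Baz1a, a subunit of ISWI-type remodellers, was 11.9-fold lower (294 and 3506). Among 91 genes of DNA and histone methylation 5 were higher (5.49%) and 12 lower (13.2%, median 0.02).

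Polycomb and histone methylation genes stood on both sides. Cbx2, a reader in Polycomb complex PRC1, read 623 and 160 (3.90-fold higher), whereas Ezh2, the methyltransferase of complex PRC2, read 293 and 1129 (3.85-fold lower). Kmt2d, which methylates lysine 4 of histone H3 at enhancers, was 4.49-fold higher (819 and 182). Phf7, a histone reader of male germ cells, read 8.9 and 959.8, at least 19.2-fold lower. Kdm4d, a demethylase that is abundant in testis, read 276 and 2683 (9.74-fold lower), and Suv39h2, a germ-line methyltransferase of heterochromatin, 139 and 495 (3.55-fold lower).

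Signalling groups differed in their calls. Of 35 measured receptor tyrosine kinases and ephrins 6 were higher (17.1%) and none lower, with a median log2 fold of 0.66. Ephb3, an ephrin receptor (chr11:93345098-93363775), was 13.4-fold higher (2433 and 182), and Ephb2 was 3.28-fold higher. Ptk7, a receptor with an inactive kinase domain in Wnt signalling, read 1213 and 139.8. Igf1r, the receptor of insulin-like growth factor 1, read 575 and 92.7, and both of its probe sets were higher. Erbb2 was 3.18-fold higher. Of these 6 genes 3 were somatic-bright.

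The MAP kinase group had 6 higher genes of 85 (7.06%, near the 5.69% of all genes; median 0.46) and the group of PI3K, insulin and mTOR signalling 7 of 62 (11.3%; median 0.33). Dusp7, a phosphatase that turns off ERK, read 458 and 57.5, 7.96-fold higher. Shc1, an adaptor between receptors and Ras, read 1614 and 445 (3.62-fold). Dusp11, counted here by its symbol, acts on RNA. Akt1, the kinase downstream of PI3K, read 1107 and 322 (3.43-fold), Sgk3 425 and 84.9 (5.01-fold) and Igfbp2, which binds insulin-like growth factors, 722 and 205 (3.52-fold). The signal of Akt1 in the tubular fraction was 1349, and 4 of the 6 and 5 of the 7 higher genes were somatic-bright.

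The Notch and Hedgehog group had 3 higher genes of 30 (10%, beside 5.69% of all genes), namely Gli2 (297 and 70.7), Maml3 (637 and 133.9) and Aph1a (353 and 67). Maml3 and Aph1a were somatic-bright, with tubular signals of 709.5 and 547. The Wnt group had 3 higher (5.66%, near the share of all genes) and 1 lower (1.89%) of 53. The transcription factor gene Tcf7 was 6.85-fold higher (792 and 116) and Axin1, of the complex that degrades beta-catenin, 3.70-fold lower. Of 43 TGF-beta and BMP genes 1 was lower (2.33%), the receptor gene Tgfbr1, at 3.06-fold. Of 97 cytokine and chemokine genes 2 were higher (2.06%) and 1 lower (1.03%). The cyclic nucleotide and G protein group had 7 higher and 7 lower genes of 128 (5.47% each), and 4 of the 7 higher ones were somatic-bright. The phosphatases had 8 higher (6.25%) and 11 lower (8.59%) of 128. Crabp1, which binds retinoic acid in the cytoplasm, was 7.86-fold higher (1252 and 159), and Aldh1a2, which makes retinoic acid, 4.10-fold lower (229 and 939).

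Adhesion genes of the laminin receptor and focal adhesion group were higher for 3 of 38 (7.89%, beside 5.69% of all genes) and lower for none (median 0.50). Src, the kinase of focal adhesions, read 399 and 72 (5.53-fold higher), Cd151, a tetraspanin that partners with laminin-binding integrins, 471 and 148 (3.19-fold), and Sdc4, a syndecan that acts beside integrins, 831 and 266 (3.12-fold). All 3 were somatic-bright, with tubular signals of 384, 1163 and 2263. The alpha 6 integrin gene Itga6 counts as not called here because the probe set used for it, on type A, read 76.1 and 72. A further probe set on type B was higher, at 3270.0 and 443 (log2 fold 2.88), and another there read 91.7 and 17.9. Over all genes, probe sets other than the one used called 119 more genes higher and 139 more lower. The beta 1 integrin gene Itgb1 read 632 and 468, and Itga3 200.4 and 122.

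Cell-cell junction genes went in both directions, with 3 higher (6.82%) and 4 lower (9.09%) of 44 (median 0.37). Cldn12, a claudin, read 2182 and 496 (4.40-fold higher). Nectin3, a nectin, read 558 and 3315 (5.94-fold lower) and Jam3, a junctional adhesion molecule, 421 and 1544 (3.67-fold lower). Afdn, which binds nectins inside the cell, was 3.05-fold lower, and Tjp1, a tight junction scaffold, 3.16-fold lower. Neuronal-type genes had 8 higher (9.41%) and no lower genes of 85 (median 0.49). Sema6d was higher at 4.83-fold (624 and 129), Reln, a secreted guidance protein, at 4.02-fold (889 and 221) and Dlgap4 at 6.36-fold. Sema6d, at 752 in the interstitial fraction, and Dlgap4, at 949 in the tubular fraction, were somatic-bright. Rbfox3, a splicing regulator known from neurons, read 576 and 35.5, at least 11.5-fold higher, and it was under the floor in both somatic fractions and on STO day 20.

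RNA-binding genes had 9 higher (6%) and 15 lower (10%) of 150 (median -0.01). Igf2bp2, which binds messenger RNAs of growth genes, was 7.82-fold higher (1735 and 222), and both of its probe sets were higher. Msi2, a Musashi protein of stem and germ cells, was 3.96-fold higher (904 and 228), with 1325 in the tubular fraction. Tdrd7, of germ granules, read 587 and 2692 (4.58-fold), Piwil2, a PIWI protein of the piRNA pathway, 1011 and 3126 (3.09-fold) and Ddx25, a testis helicase, 266 and 1053 (3.95-fold). Splicing genes had 4 higher (4.65%) and 8 lower (9.30%) of 86. U2af2 was 4.75-fold higher (6257 and 1319), Hnrnpll 13.7-fold lower (233 and 3189) and Ptbp2, a splicing regulator of germ cells and neurons, 3.58-fold lower.

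Protein-folding and secretory genes were mostly lower where called. Of 111 chaperone genes 2 were higher (1.80%) and 13 lower (11.7%, median -0.22). Hspb9, a small heat shock protein of testis, was 17.9-fold lower (127 and 2266), and Hspa4l, a testis-rich relative of HSP110, 15.6-fold lower (192 and 2998). Subunits Cct2 and Cct8 of the chaperonin that folds actin and tubulin were 3.22-fold and 3.40-fold lower. Of 167 secretory genes 4 were higher (2.40%) and 17 lower (10.2%, median 0.11). Sec63, of the translocation channel, was 12.2-fold lower (173 and 2106) and Man2a2, a Golgi mannosidase needed in spermatogenesis, 5.81-fold lower. Hsp90ab1 was called in both directions, since its probe sets read 2095.1 against 576 and 181 against 778.

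Ubiquitin genes had 16 higher and 31 lower of 323 (median 0.04). Klhl10, a ubiquitin ligase adaptor of spermatids, read 110.2 and 1038 (9.42-fold lower), and Ube2d2b, a rodent ubiquitin-conjugating enzyme, 26.8 and 1141, at least 22.8-fold lower. Klhl13, of a ligase that acts in mitosis, was 6.63-fold higher (1433 and 216), and Uba1, the activating enzyme, 4.82-fold higher (1832 and 380.0). The proteasome had 6 higher (13.3%) and 4 lower (8.89%) genes of 45. Of the higher ones Psmb9 (695 and 86.9, 8.002-fold), Psmb10 (5.53-fold) and Psmb8 (3.73-fold) encode the catalytic subunits of the immunoproteasome. The other higher ones were Psme2, of an activator that is induced with it, at 3.35-fold, and the core subunits Psma7 and Psma4 at 5.60-fold and 3.05-fold. Lower were Psmc3 (4.23-fold) and Psmd1 (3.91-fold) of the regulatory particle, the assembly chaperone Psmg1 (3.49-fold) and Psme4 (3.26-fold), the PA200 activator that is active in spermatogenesis. Of the 6 higher proteasome genes 5 were somatic-bright.

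Of 88 genes of oxidative phosphorylation 4 were higher (4.55%) and 3 lower (3.41%, median 0.51). Both shares lay below those of all genes. The higher ones were Cox8a (2702 and 426, 6.34-fold), Cox6b1, Atp5mk (7849 and 1309) and Ndufa3 (443 and 109, 4.05-fold). Cox8a, at 2221 in the tubular fraction, and Cox6b1, at 1420 in the interstitial fraction, were somatic-bright. Lower were Ndufs1, the largest subunit of complex I, at 3.07-fold, Ndufv2 at 3.02-fold and Ndufaf3, an assembly factor, at 13.3 and 1530.3, at least 30.6-fold. The pyruvate and citric acid cycle group had 1 higher (2.78%) and 4 lower (11.1%) genes of 36, with 31 not called (median 0.09). Cs, citrate synthase, was 4.33-fold lower (366 and 1584) and Dld, shared by the large dehydrogenase complexes, 3.03-fold lower. Acly, which splits citrate in the cytosol, was 3.43-fold higher (2689 and 785). The citrate carriers also went apart, with Slc25a1 of the mitochondrial membrane 5.19-fold higher (1183 and 228) and Slc13a5 of the cell membrane lower.

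Lipid genes had 7 higher and 7 lower of 98 (7.14% each, near the shares of all genes; median 0.58), and some related enzymes stood on opposite sides. Somatic-bright were 2 of the 7 higher genes, among them Elovl5, at 4297 in the tubular fraction. Fasn, fatty acid synthase, was 5.82-fold higher (2702 and 464). Among the elongases Elovl5 (4795 and 1279) and Elovl4 (431 and 109) were 3.75-fold and 3.95-fold higher, and Elovl2, which makes the very long fatty acids of male germ cells, was 9.14-fold lower (91.9 and 840.3). Among the carnitine transferases Cpt1a was 4.93-fold higher (382 and 77.5), Cpt1b was 3.69-fold lower (129 and 477) and Cpt2 at least 7.27-fold lower. Fabp9, a fatty acid-binding protein of testis, was 21.4-fold lower (278 and 5926). Zinc carriers showed the same kind of contrast, with Slc30a2 at 8.32-fold higher (704 and 84.6) and Slc30a4 at 38.2 and 661, at least 13.2-fold lower.

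Division genes were not uniform. None of 53 genes of the mitotic spindle and kinetochore was higher and 5 were lower (9.43%, median -0.12). These were Aurkc, a germ cell aurora kinase, Cenpq, Ect2, Bub1 and Ttk. Ect2, which starts cytokinesis, read 759 and 5550.4 (7.31-fold lower), and Ttk, a checkpoint kinase, 1202 and 4193 (3.49-fold lower). In the replication group 6 were higher (11.1%) and 2 lower (3.70%) of 54 (median 0.20). The lower ones were Mcm8, a helicase of recombination, at 3.88-fold and Pole4 at 3.52-fold. The higher ones include Chtf18, which loads the replication clamp, at 4.01-fold. Of 46 recombination and mismatch repair genes 5 were lower (10.9%), with Rad54l at 32.3 and 322, at least 6.43-fold. Psmc3ip, a partner of the meiotic recombinase, was among them at 5.48-fold (248 and 1360.3). The nuclease gene Mus81 was the 1 higher gene (2.17%), at 3.09-fold.

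The largest higher folds above the floor on both sides came from many classes. Inf2, a formin that shapes actin filaments, was 24.2-fold higher (2927 and 121), with 1057 in the tubular fraction. Rhbdf2, an inactive rhomboid protein, was 17.6-fold higher (942 and 53.4), Vav2, a guanine nucleotide exchange factor, 17.4-fold (1000.3 and 57.6) and Patz1, a zinc finger repressor gene, 15.4-fold (959 and 62.4). Rbm43 was 14.2-fold higher (709 and 50), with 902 and 756 in the interstitial and tubular fractions. Nptx1, a secreted pentraxin, was 13.9-fold higher (1182 and 85), with 17.2 and 3.4 there. Tafa5 read 607 and 52.1 (11.7-fold). Bnc2, a zinc finger gene of the germ line and of mesenchyme (chr5:103724934-104061890), read 5408 and 411 (13.2-fold higher), with 3444 in the interstitial fraction. Ndrg2 read 2992 and 218 (13.7-fold), with 1959 and 3358 in the tubular and interstitial fractions. Ccdc6 was 11.8-fold higher (3162 and 268) and Dgkh, a diacylglycerol kinase, 12.2-fold (1010 and 82.7). Of genes with the non-binding side under the floor, Smim1 (735 and 6.6), Kazn (534.5 and 45.6), Irf5, of interferon signalling (489 and 22.2), and Igfbpl1 (403 and 43.7) were at least 14.7-fold, 10.7-fold, 9.77-fold and 8.07-fold higher. Igdcc3, an immunoglobulin-domain gene (chr8:74556348-74603136), read 1004 and 34.5, at least 20.1-fold higher, and both of its probe sets were higher. It was under the floor in both somatic fractions and on STO day 20. Among higher genes dim in both somatic fractions, Myh6, a myosin heavy chain known from heart muscle, read 1808 and 233 (7.75-fold), with 31.7 in the tubular and 10 in the interstitial fraction, although signal from near-identical myosin genes cannot be told apart here.

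Separate probe sets of a gene gave a partial check on single readings. Of 3027 genes with at least 2 measured probe sets 18 had all of them higher and 31 all of them lower, and 2 were called in both directions, Hsp90ab1 and Man1b1. For 394 called genes with a further measured probe set, the others all lay on the same side of 0 in 287 (72.8%), and at least 1 was called the same way in 84 (21.3%). Among the 240 further probe sets that reached 250 on either side, 204 (85%) lay on the same side and 93 (38.8%) were called the same way. Some genes named above had a further probe set that was not called. At bright signal these included Cct8 (3594 and 5081), Man2a2 (863.5 and 1505), Ezh2 (317 and 510.3), Sec63 (261 and 301) and U2af2 (270.5 and 239). Among genes with large printed folds they also included Foxp1 (910.1 and 350, 584.7 and 210), Satb1 (427.5 and 174.8) and Slc30a2 (409.8 and 204.6). Others were Psma7 (399.9 and 192.7), Dgkh (311.5 and 146.5), Msi2 (416.8 and 218.8) and Nectin3 (378.6 and 699). On the opposite side of 0, and dim, were, among others, further probe sets of Ephb3 (15.6 and 74.1), Chd7 (36.3 and 78.4), Nectin3 (123.1 and 44.5) and Tdrd7 (101 and 56.5). Higher on all probe sets were Igdcc3, Arid3a, Stat2, Ret, Lrrc8a, Pou2f2, Igf2bp2 and Igf1r, to give those with the largest median folds, and lower on all were Lrrc23, Izumo4, Cfap36, Tmx4, Robo2, Trim14, Ubr3 and Hspa2.

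The called genes were read in the remaining populations as a description. The median signal of the 625 higher genes was 666 in binding and 154 in non-binding cells, 480.3 on STO day 1, 490.4 on day 5, 408 on day 10, 213 on day 20 and 466 on MSC1. It was 277 in the interstitial and 319 in the tubular fraction. The 713 lower genes had a median of 208 in binding and 1079 in non-binding cells, 339 on STO day 1, 294 on day 5, 378 on day 10, 651 on day 20 and 312 on MSC1, and 348 and 276 in the somatic fractions. Over all measured genes the population medians ran from 202 to 255. A call required a bright signal in a laminin library, so this range is not matched to the called genes in brightness. The lower genes lay above it in every feeder culture and in both somatic fractions. Among the feeder cultures, the higher genes had their lowest median on STO day 20 and the lower genes their highest. Of the 625 higher genes 269 had their highest signal in binding cells and 97 in tubular somatic cells, and of the 713 lower genes 150 were brightest on STO day 20. A higher call asks for a bright binding side, so the count of 269 follows in part from it. These counts were not made over all genes.

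**Figure D5:**
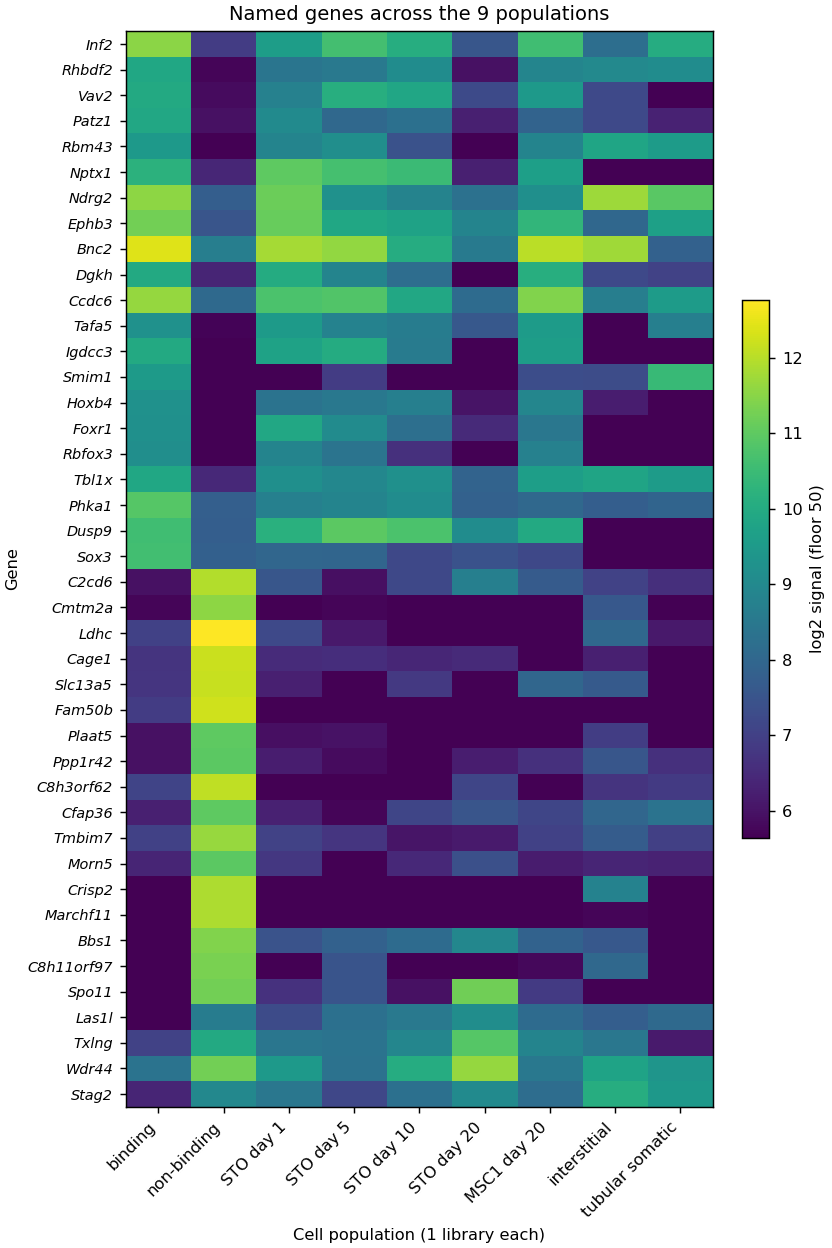
Log2 signal (colour, floor of 50) of the genes with the largest folds and of X-linked genes (rows) in the 9 populations (columns, 1 library each). The rows of lower genes such as Fam50b and Marchf11 are bright in the non-binding column alone, whereas Spo11, Txlng and Wdr44 are also bright on STO day 20, and higher genes such as Bnc2 and Ndrg2 are bright in the interstitial column too.

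Some called genes were under the floor in both somatic fractions. These were 36 of the higher genes (5.76%) and 44 of the lower genes (6.17%), beside 8.91% of all 10977 measured genes and 2% of the 6048 that reached 250 in either library. Among these higher genes the brightest were Myh6, Sox3, Dusp9, Nptx1, Plppr3, Fosb, Igdcc3 and Ripk4. Plppr3, a lipid phosphatase-related membrane protein, read 1159 and 225, and Ripk4, a receptor-interacting kinase, 924 and 294. Among these lower genes were Spdya, an activator of cyclin-dependent kinases in meiosis, at 239 and 1524, and Ccdc113, a centriole and axoneme protein, at 272 and 1498. Spdya was also bright on STO day 20, at 1265, whereas Ccdc113 read 131 there.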

How the data were processed

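RNA from 9 cell populations had been put on 2 array types, and 4 of the 18 arrays were compared. Per the labels, the authors deposited intensity values on a linear scale, each array scaled to a mean of 250. Detection calls with a Tau of 0.015 are named in the labels and were not used. The software used for this is not given in the sources used.

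Signals were raised to 50 and taken to log2 within each array type. Of the counted probe sets 20253 had 1 gene, 411 several and 10378 none in the platform annotation, and only the first kind was named. Symbols and positions come from the RefSeq table of GRCr8 (13749 of 13807 genes). For each gene the probe set with the highest mean log2 signal over the 9 populations was used, from type A where that type had one. It was measured where either side reached 50 and called where the brighter side reached 250 and the fold was at least 3. Control probe sets (57 per type) were left out, and the 100 shared probe sets were counted on type A alone.

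Named genes are drawn from lists of, in each direction, the 12 largest folds above the floor on both sides, the 8 brightest calls with the dim side under it, the 8 largest median folds among genes called by all of at least 2 probe sets, up to 4 called members per group, the 6 largest X-linked folds, the 8 brightest calls under the floor in both somatic fractions, the pairs of copies and the cell type markers; members of the lists that are not printed are in the counts. Further members of a group, Itgb1 and Itga3 were chosen after their values were seen. A gene group is not reported here. Groups were set by symbol patterns, and Psmc3ip and Rpl7l1 were taken out of the proteasome and ribosomal groups after values were seen. The groups, lists and pairs were chosen with earlier results of these data known. Where RefSeq gave a gene several promoters, the first listed was used. Python 3.11.15 with numpy 2.4.6 and pandas 2.3.3 was used. The calling code was run on simulated data with folds planted in bright probe sets and noise of the array error. That run checks the code and not the folds of these arrays.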

Additional observations from a re-analysis of the deposited data

How the results depend on the processing

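No paired analysis was possible because each side is 1 library per array type. The share of higher among called probe sets was 48.8% (95% exact binomial interval 46.8% to 50.9%, counting error only). That interval takes probe sets as independent, although some share a gene and all share the same 2 populations, so it is too narrow. It was 39.5% (923 higher, 1416 lower) when arrays shared their 75th percentile and 43.8% (914 and 1174) after quantile normalization, and the median of all genes was then 0.11 and 0.06 in place of 0.21. A fold of at least 2 gave 2438 and 2141 (53.2%), and one of at least 5 gave 397 and 500 (44.3%). A brightness minimum of 500 gave 682 higher (43.2%), and none gave 53.2%. Type A alone gave 552 and 570, and type B alone 580 and 616, since each holds fewer probe sets. Both somatic filters were chosen after seeing the data. Without somatic-bright probe sets 642 were higher (35.5%), but that filter uses the same non-binding signal as the call and so removes mostly higher ones by construction. Without probe sets for which a somatic fraction was at least as bright as the brighter germ cell library, 797 were higher and 993 lower (44.5%). The median of the cilium and axoneme group minus that of all genes was -1.14, -1.55 with a floor of 100 and -0.67 on type A alone; the cause of the first was not tested. The median of X-linked minus autosomal genes was 0.24 to 0.37 over the alternatives, against 0.30. Of 539 called genes that are on the lists of named genes, are markers or belong to a gene group, 0 changed direction under the floors and scalings tried. All had a fold of at least 3, so a reversal could hardly occur and this count is no check of them. Quantile normalization changed the log2 fold of 203 of them by at least the array error of 0.21, toward 0 for 195. Sharing the 75th percentile did so for 137, toward 0 for 49. The median of the acrosome group minus that of all genes went from -0.12 to -1.31 with a floor of 100. A floor of 100 also drops genes under 100 on both sides, so each median with that floor covers fewer genes. Signals near 50 limit the folds of dim genes, and the number of arrays limits precision.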

Other observations

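Probe sets with no gene in the platform annotation were also called. Their share of higher among called was 57.1%, against 46.3% for probe sets with 1 gene. The largest folds above the floor on both sides were those of probe sets 1384533_at (7333 in binding and 326 in non-binding cells, 22.5-fold higher) and 1397616_at (981 and 54.2, 18.1-fold higher), and of 1385591_at (93.4 and 4047, 43.3-fold lower) and 1380091_at (103 and 4352, 42.4-fold lower), all on type B. The files used here do not pair these probe sets with genes.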
